A study of Mus musculus with 12 samples.

Results

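The histone cluster genes of the mouse were followed through a DNA damage experiment in embryonic stem cells. They were taken as the rows of the deposited count table whose symbol begins with Hist1h, Hist2h, Hist3h or Hist4h and whose counts sum to at least 100 over the 11 usable libraries. The rule used total counts and no comparison between groups. It kept 58 of the 70 rows with such a symbol, out of 54532 genes in all. By class these were 5 linker histone H1 genes, 17 H2A, 14 H2B, 11 H3 and 11 H4 genes. By cluster, 48 were Hist1 genes, 8 Hist2 genes, 2 Hist3 genes and none a Hist4 gene. Just inside the threshold were Hist1h2bb with 103 counts, Hist1h2bl with 108 and Hist1h4f with 109, and just outside were Hist1h3f with 97, Hist1h2bn with 95 and Hist4h4 with 86. All 58 passed the filter on low counts and were tested.

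Poly(A)-selected RNA had been sequenced from E14 mouse embryonic stem cells, a standard line from the inner cell mass of the blastocyst, kept on gelatin in serum-containing medium with LIF and the kinase inhibitors PD0325901 and CHIR99021. The cells were wild type, p53 knockout (p53 KO) or Dux knockout (Dux KO). Each genotype received either 1 uM doxorubicin, a topoisomerase II poison that breaks DNA, or the DMSO vehicle, for 6 h, after which all cells were given drug-free medium. How long they were then kept, and how the knockouts were made, are not given in the sources used here. The labels give 2 libraries in each of the 6 groups. Each knockout library 1 or 2 comes from the line of that number, in vehicle and drug alike, while the wild-type libraries, called a and b here, carry no number and were not paired. p53 is the transcription factor that responds to DNA damage, and Dux is a transcription factor of the early cleavage embryo.

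The count column of the second Dux KO vehicle library repeated that of the first Dux KO doxorubicin library in all 54532 rows and was left out. Dux KO vehicle is therefore 1 library in every count-based value, with a spread taken from the groups that have 2 libraries. Its own FPKM column differed and is shown where FPKM is given. Library totals ran from 23270358 to 56795858 counts, of which the 58 genes took 0.0094 to 0.0428%. Counts of Duxf3, the row of the Dux gene, were 0 in all 3 Dux KO libraries, whereas in wild type its level was 0 to 0.078 CPM with vehicle and 21.6 and 22.8 CPM with doxorubicin. Trp53, which encodes p53, still had 39.8 to 95.5 CPM in the p53 KO libraries against 133 to 193 CPM in wild type. Counts cover the whole gene span, so they do not show whether a short edit is present. Embryonic stem cell markers (Pou5f1, Sox2, Nanog and 5 others) summed to 3974 to 4628 CPM in the vehicle libraries and to 731 to 2459 CPM in the doxorubicin libraries. The 6 fibroblast markers summed to 2.3 to 29.6 CPM, and were highest with doxorubicin in wild type, at 26.5 and 29.6 CPM, where 3 of the 4 tested rose. The 4 primitive endoderm markers summed to 5.21 and 5.38 CPM in wild-type vehicle and to 26.3 and 24.9 CPM with doxorubicin, and the 4 trophectoderm markers to 13.4 and 12.2 and then 29.4 and 44.4 CPM. Of each of these lists 3 of the 4 rose. The part of these shifts in cell state in the results below was not tested. In bulk RNA, fewer cells that transcribe a gene and less RNA per cell cannot be told apart.

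Cluster histone genes supply the bulk of the nucleosome's proteins while DNA is being copied. The core histones H2A, H2B, H3 and H4 form the octamer that DNA wraps around, and H1 binds the linker DNA between octamers. Their messages are unusual: they are transcribed in S phase, carry no intron and, in place of a poly(A) tail, end just after a stem-loop that is bound by the protein Slbp. Cells that stop copying DNA degrade them. A minority of the messages are made with a poly(A) tail, which is commoner in cells that leave the cycle. A library selected for poly(A) captures tailed histone RNA well and tail-less histone RNA poorly, so the levels below describe captured RNA and not the whole histone message pool.

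The 3′ stem-loop was searched for by its consensus on the coding strand of the GENCODE M21 transcripts, in the first 100 bases after the stop codon. It was found in 39 of the 58 genes, starting 24 to 58 bases after the stop codon with a median of 31. Many transcript models end early, and where the whole 100 bases were annotated it was found in 23 of 27 genes. By comparison, it occurred in 3 of 20139 other protein-coding genes, or 0.0149%. Each distinct form is printed under a gene that carries it, with the 2 arms of the stem in capitals and the loop in lower case, because this is the element that replaces the poly(A) tail.
Hist1h2ap: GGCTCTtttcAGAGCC
Hist1h4n: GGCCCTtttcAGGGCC
Hist1h3c: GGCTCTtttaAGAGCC
Hist1h4i: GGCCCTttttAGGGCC
Hist1h4j: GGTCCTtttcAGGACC
Hist1h4a: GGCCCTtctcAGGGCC
Hist1h3g: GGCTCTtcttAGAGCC

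The form shown for Hist1h2ap was carried by 24 genes, of classes H1, H2A, H2B and H3. The forms with a GGCCCT or GGTCCT arm were found in the H4 genes: the Hist1h4n form in 5, the Hist1h4i form in 2, the Hist1h4j form in 2 and the Hist1h4a form in 1. The poly(A) signal hexamer AATAAA lay somewhere after the annotated stop codon in 17 of the 58 genes, and in 12 of them it followed the stem-loop, as in Hist1h1c and Hist2h3c1. Within the 100-base window it occurred in 0 of the 27 fully annotated genes, against 7.94% of other protein-coding genes. Of the 58 genes, 53 had only single-exon transcripts.

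Promoters of 3 genes that behaved differently below are printed from RefSeq (GRCm38.p6), each as the 120 bases before the annotated start on the coding strand. They are Hist1h2ao at chr13:21810247-21810366 (+ strand), Hist1h2bg at chr13:23571280-23571399 (+ strand) and Hist1h4d at chr13:23581448-23581567 (+ strand). Capitals mark the motif TATAAA, searched on the coding strand, and the motif CCAAT and the octamer ATTTGCAT, both searched on either strand, so that CCAAT on the opposite strand reads as ATTGG here.
Hist1h2ao: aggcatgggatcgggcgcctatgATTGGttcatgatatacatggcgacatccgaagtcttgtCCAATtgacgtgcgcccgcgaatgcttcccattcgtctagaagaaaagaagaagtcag
Hist1h2bg: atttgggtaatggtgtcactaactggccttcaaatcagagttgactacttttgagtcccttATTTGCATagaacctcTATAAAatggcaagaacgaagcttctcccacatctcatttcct
Hist1h4d: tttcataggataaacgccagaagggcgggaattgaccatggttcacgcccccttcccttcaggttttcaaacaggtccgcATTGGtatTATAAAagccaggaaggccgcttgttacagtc

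A promoter was matched for 52 of the 58 genes, and 250 bases before the start were searched. CCAAT was present in 5 of 5 H1, 15 of 15 H2A, 12 of 12 H2B, 8 of 10 H3 and 2 of 10 H4 promoters, against 33.8% of all 32851 promoters. The octamer was found in 5 of 15 H2A and 5 of 12 H2B promoters and in none of the other 25, against 1.6% of all. TATAAA was found in 4 of 5 H1, 3 of 15 H2A, 3 of 12 H2B, 4 of 10 H3 and 6 of 10 H4 promoters, against 7.59% of all. A match describes these letters and is not evidence of a bound factor.

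On mm10, 47 of the Hist1 genes lie on chromosome 13 between 21715763 and 23764406, a span of 2.05 Mb. The exception is Hist1h2al, annotated as a processed pseudogene at chr13:51202727-51203065. The Hist2 genes lie at chr3:96221119-96270132 and the Hist3 genes at chr11:58948920-58956830. Levels per gene length were very unequal. In mean FPKM over the libraries, the highest H2A genes were Hist1h2ap at 98.5, Hist1h2ao at 94.95 and Hist1h2ah at 30.3. No other class approached this: the highest H4 genes were Hist1h4i at 4.34, Hist1h4k at 2.01 and Hist1h4n at 1.62, and the highest H1 genes Hist1h1c at 3.29, Hist1h1a at 2.25 and Hist1h1b at 0.51. Among H2B genes the highest were Hist1h2bk at 2.34, Hist1h2bg at 1.93 and Hist3h2ba at 1.70, and among H3 genes Hist1h3c at 2.40, Hist1h3h at 1.79 and Hist1h3g at 1.72.

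What the H2A counts hold needs a limit of its own. The strand setting of the counting is not stated, and all 17 H2A genes overlap another annotated gene. Where a gene of at least 100 counts lies wholly inside exactly 1 larger gene on the opposite strand, its count exceeded that of the larger gene in no library for 99.78% of 2251 genes. The same held for 100.0% of 1281 genes nested on the same strand. In 15 of them a predicted miRNA gene lies wholly inside the gene on the opposite strand, and 51.3 to 95.1% of the gene's counts fall within it, although it covers at most 35.9% of the span. In Hist1h2ap it covers 28.6% of the span and holds 67.6% of the counts. Which strand these reads came from cannot be told apart. Members also resemble each other: in the median gene 53.2% of 50-base words recur in another histone cluster gene, and in H2A genes 79.7%, so reads could be divided among near-identical copies in ways the deposited counts do not show. Values of single H2A genes are uncertain for both reasons, and class sums are given beside them.

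**Figure D1:**
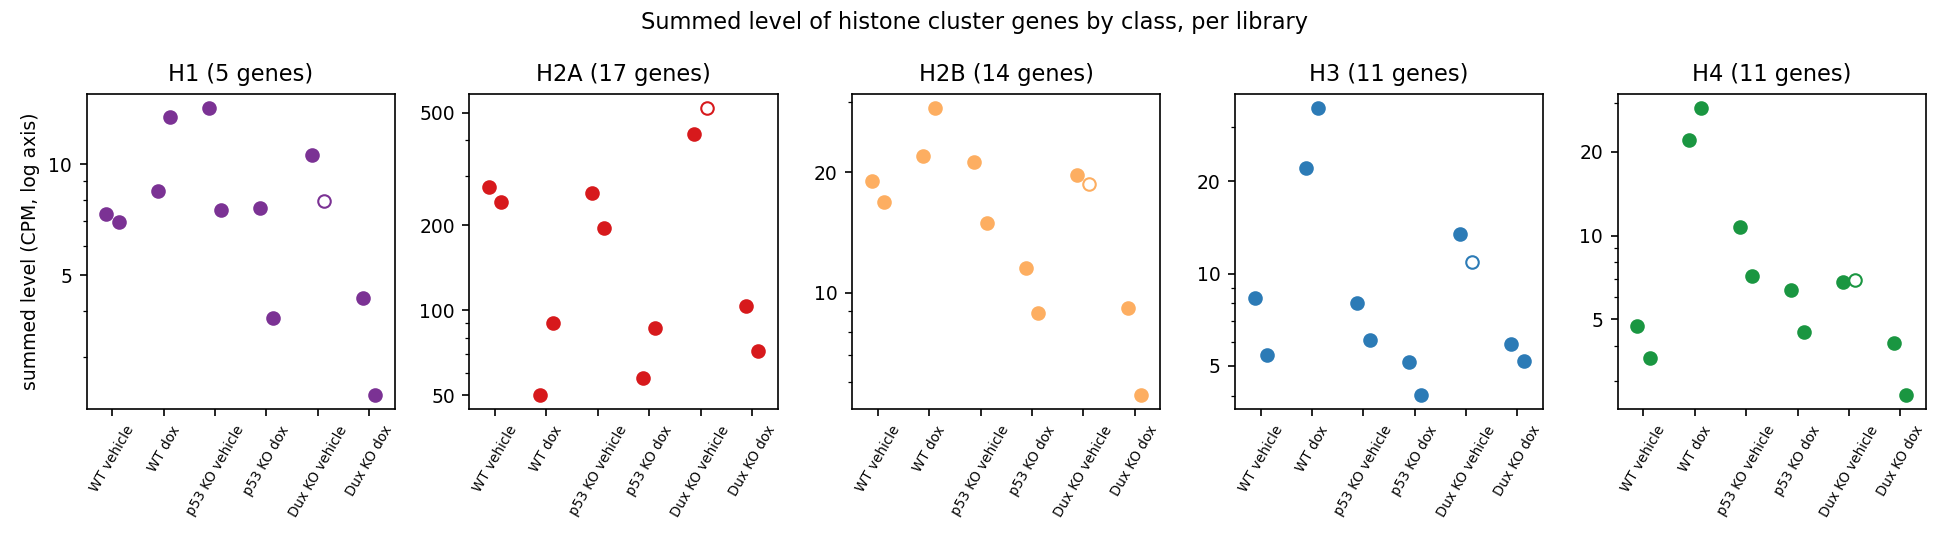
Summed level of the histone cluster genes of each class in each library, in CPM on a log axis, by genotype and treatment. Points are libraries and the hollow point is the second Dux KO vehicle library, with counts recovered from its FPKM column. With doxorubicin the H2A sum was lower in every genotype, while the H3 and H4 sums were higher in wild type and not in the knockouts.

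In wild-type cells doxorubicin moved the classes in opposite directions: H2A RNA fell while H4 and much of H3 RNA rose. Of the 58 genes, 19 rose and 13 fell at an adjusted p under 0.05 (edgeR's quasi-likelihood test, Benjamini-Hochberg adjusted over 28643 genes), where 29.0% of all genes tested rose and 23.4% fell. Over the 58 genes as a whole, the shares called were thus near those of all genes, and it was the split by class that stood out. All 13 falls were Hist1 H2A genes. Rises took in 9 of 11 H4 genes, 5 of 11 H3, 2 of 14 H2B and 3 of 17 H2A genes, and none of the 5 H1 genes was called. The median log2 fold change was 0.89 over the 58 genes and 0.13 over all genes, with class medians of -1.86 for H2A, 0.32 for H1, 0.85 for H2B, 1.54 for H3 and 2.31 for H4. Without wild-type doxorubicin b the median over the 58 genes was 0.45. When any wild-type library was left out, fewer of all genes were called as well, so the numbers that follow are not particular to the 58 genes. Leaving out wild-type vehicle a gave 12 rises and 7 falls, leaving out vehicle b gave 9 rises, and leaving out doxorubicin a gave 5 falls.

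H4 protein is encoded identically by many genes, and their RNA was scarce with vehicle. The 11 H4 genes summed to 4.74 and 3.63 CPM in wild-type vehicle and to 22.0 and 28.8 CPM with doxorubicin. Both drug libraries thus stood above every other library of the study, of which the highest was 10.7 CPM. Means were 4.18 ± 0.79 and 25.4 ± 4.81 CPM (SD, n = 2), a 6.07-fold difference. In the most abundant of them, Hist1h4i (chr13:22040636-22041362), FPKM was 1.98 and 1.97 with vehicle and 15.2 and 15.3 with doxorubicin. Its log2 fold change was 2.91 ± 0.44 (SE, edgeR adjusted p = 0.000616). Hist1h4j (log2 fold change 3.68), Hist1h4n (3.51) and Hist1h4k (3.47) rose more on fewer reads. Hist1h4f had 2 counts in wild-type vehicle and 51 with doxorubicin, a ratio of 21.9 with a 95% counting interval of 5.75 to 186. With 109 counts in all, it passed the count rule only through the wild-type doxorubicin libraries. So, among others, did Hist1h4j (42 and 50 of its 145 counts there), Hist1h4b, Hist1h4m and the H3 gene Hist2h3b (26 and 58 of 181). The wild-type response of these genes and their differences between genotypes are therefore not independent of the rule. The same holds for the H4 and H3 counts and medians that include them.

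H3 genes, which encode the replication-coupled H3 proteins, rose above all in the Hist2 cluster. Hist2h3c1 (chr3:96246685-96248509) had FPKM of 0.656 and 0.620 with vehicle and of 4.84 and 5.52 with doxorubicin in wild type. No knockout library reached the wild-type drug level, the highest being 1.35 FPKM. The log2 fold change in wild type was 2.98 ± 0.41 (SE, edgeR adjusted p = 0.000386), and Hist2h3c2 (3.64) and Hist2h3b (3.16) rose as well. Over the 3 Hist2 H3 genes the sum went from 1.72 ± 0.32 to 15.8 ± 2.6 CPM (SD, n = 2), 9.18-fold, and over the 8 Hist1 H3 genes from 5.15 ± 1.73 to 12.6 ± 6.37 CPM, 2.46-fold. Of the Hist1 H3 genes, 2 rose.

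Of the 8 Hist2 genes 6 rose in wild type, and of the 2 Hist3 genes 1. Both Hist2 H2A genes rose, Hist2h2aa1 and Hist2h2aa2 each by 2.46 on the log2 scale, where 13 of 14 Hist1 H2A genes fell. Hist2h4, the H4 gene of this cluster, rose by 2.15 and Hist3h2ba, the H2B gene of the Hist3 cluster, by 2.02. Hist2h2bb (1.12), Hist2h2be (-0.9996) and Hist3h2a (0.51) did not pass. Overlaps limit these genes too, since Hist2h2aa1, Hist2h2aa2, Hist2h3b, Hist2h3c1 and Hist2h2bb each lie across another transcript, whereas Hist2h3c2 and Hist2h4 overlap none.

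The H2A sum was 3.67-fold lower with doxorubicin in wild type, going from 258 ± 22.97 to 70.2 ± 28.1 CPM (SD, n = 2), and the sum of all 58 genes was 1.83-fold lower. H2A made up 87.4 and 88.0% of histone cluster RNA in the vehicle libraries and 40.3 and 45.95% in the doxorubicin libraries. Hist1h2ap (chr13:21833026-21833507), the most counted of all 58, had FPKM of 163 and 136 with vehicle and of 21.3 and 31.5 with doxorubicin. Its log2 fold change was -2.53 ± 0.32 (SE, edgeR adjusted p = 0.000228), and that of Hist1h2ao was -2.42 ± 0.35 (edgeR adjusted p = 0.000501). Hist1h2an, Hist1h2ai, Hist1h2aj and Hist1h2ag fell by 2.28, 2.21, 2.17 and 2.09, and Hist1h2ae, Hist1h2ab and Hist1h2af by 1.93, 1.86 and 1.86. Hist1h2ak had the largest fitted fall, 4.45, but its vehicle libraries read 1.399 and 15.26 CPM, and the call was lost in 5 of 20 alternative settings. The 1 Hist1 H2A gene that rose was the pseudogene Hist1h2al, from 0.155 and 0.374 CPM to 3.19 and 5.18 CPM. Of its sequence words, counted as above, 65.5% recur in Gm20632, a transcript that lies across Hist2h2aa2. The same share recurs in Gm20633 and in Gm20634, which lie across Hist2h2aa1. Both Hist2 H2A genes rose, and whether the rise of Hist1h2al is separate from theirs was not tested.

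Over 12 Hist1 H2A genes with a nested miRNA gene, counts inside and outside it were both lower with doxorubicin. In wild type the log2 ratio of drug to vehicle was -2.39 inside and -2.06 outside, in p53 KO -1.74 and -1.70, and in Dux KO -2.42 and -2.28. Over the 35 genes that overlap no other gene, which hold no H2A gene, 13 rose and none fell in wild type, and their sum went from 36.01 and 29.76 CPM to 61.65 and 87.79 CPM. H2B genes summed to 17.9 ± 1.56 CPM with vehicle and to 25.5 ± 4.93 CPM with doxorubicin (SD, n = 2), and the vehicle and drug libraries did not overlap. Hist1h2be was the Hist1 H2B gene that rose, by 1.74, and its long annotated span overlaps 25.7% of Hist1h1e. The H1 sum was 7.15 ± 0.27 CPM with vehicle and 10.98 ± 3.51 CPM with drug, and for Hist1h1c, a main somatic H1 gene, FPKM was 3.27 and 2.71 with vehicle and 4.06 and 5.96 with drug.

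**Figure D2:**
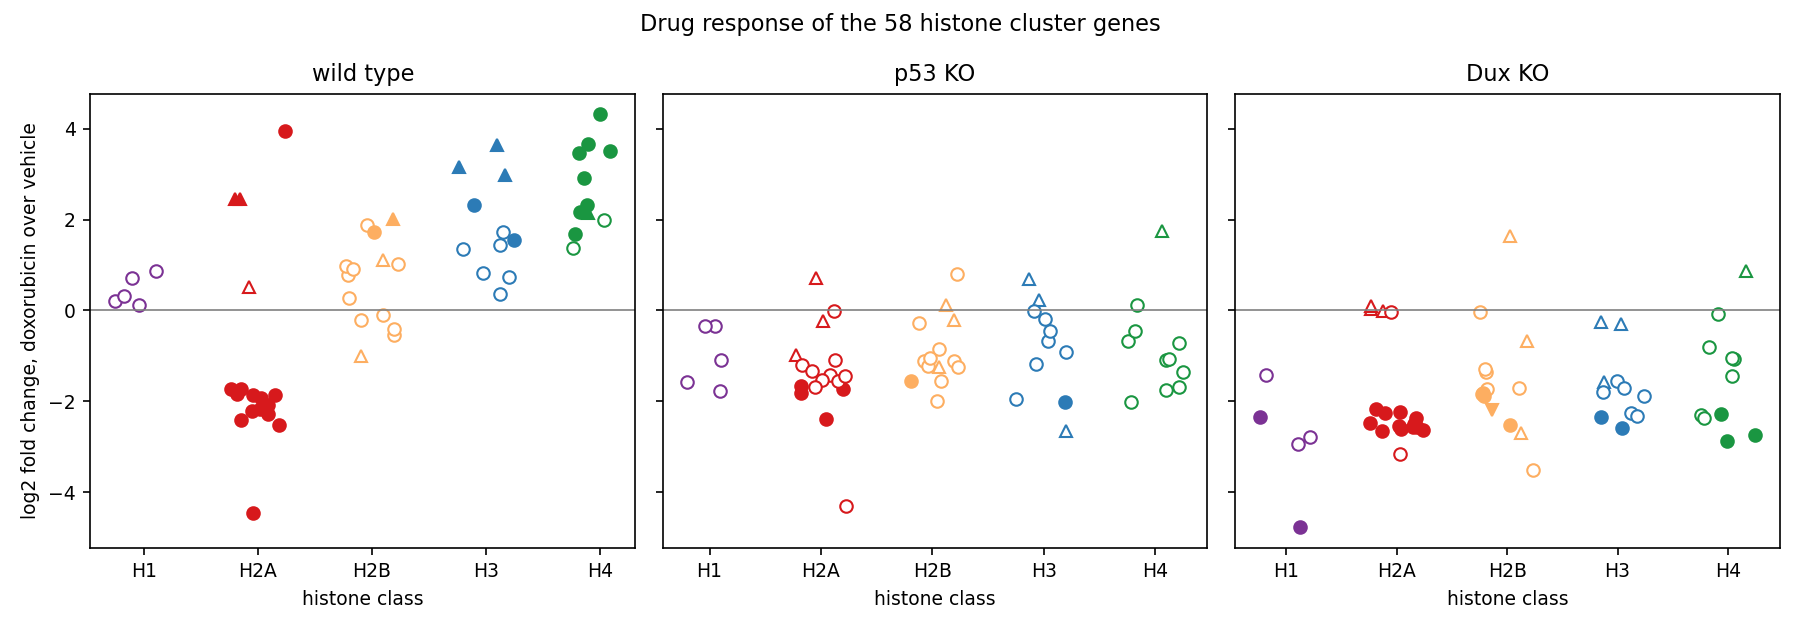
Log2 fold change of each histone cluster gene, doxorubicin over vehicle, by class in wild type, p53 KO and Dux KO. Filled symbols passed an adjusted p under 0.05 (edgeR), circles are Hist1 genes and upward triangles Hist2 and Hist3 genes, and the downward triangle is Hist1h2bj in Dux KO, drawn at its bound because both drug libraries had 0 counts. Calls in wild type came at about the shares of all genes, of which 29.0% rose and 23.4% fell. In wild type 19 genes rose and 13 fell, in p53 KO 6 fell and in Dux KO 24 fell.

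RNAs that carry no poly(A) tail varied between libraries, which bears on genes whose messages mostly lack one. Ribosomal RNA loci took 0.089 to 0.762% of counts in 10 libraries and 3.93% in wild-type doxorubicin b. Summed over 9 other RNAs without a tail, such as Rmrp and Rpph1, the level was 1.6 to 23.4 CPM in 10 libraries and 112 CPM in that one. Wild-type doxorubicin a had 9.56 CPM of them and the wild-type vehicle libraries 7.54 and 2.36 CPM. Of the 9, 7 were tested and 2 rose in wild type, a share near the 29.0% of all genes that rose. Terc, the telomerase RNA, went from 0.311 and 0.337 CPM to 3.70 and 3.99 CPM (edgeR adjusted p = 0.000157), and Rny1, a Y RNA, from 0 in both vehicle libraries to 0.901 and 1.33 CPM (edgeR adjusted p = 0.00106). Both had a lower response in p53 KO than in wild type, and Rny1 in Dux KO as well. Of 3 ribosomal RNA loci Gm26917 rose in wild type, from 1656 and 1265 CPM to 3197 and 4328 CPM, and its response was lower in p53 KO by a log2 difference of -2.09 (edgeR adjusted p = 0.0086). The part of these RNAs in the histone results was not tested. Without doxorubicin b, 9 genes rose and 11 fell: the rises were Hist1h4f, Hist1h4i, Hist1h4j, Hist1h4k, Hist1h4n, Hist2h3c1, Hist2h3c2, Hist2h2aa2 and Hist1h2al.

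In p53 KO cells 6 of the 58 genes fell with doxorubicin and 0 rose, where 8.09% of all genes tested fell and 9.31% rose. The share that fell is thus near that of all genes, and none of the 6 calls held in every alternative run. The 6 were 4 Hist1 H2A genes (Hist1h2an at -2.39, Hist1h2ap at -1.83, Hist1h2ao at -1.73 and Hist1h2ah at -1.66), the H3 gene Hist1h3c (-2.02) and the H2B gene Hist1h2bg (-1.56). The median was -1.11 over the 58 genes and 0.18 over all genes. Of the 48 Hist1 genes, 46 had a fitted level below vehicle. Their class medians ran from -0.795 for H3 to -1.54 for H2A. With the line as a block, the number of falls was 18, of which 12 were Hist1 H2A genes, and 16.4% of all genes fell. Leaving out either wild-type vehicle library, which enters through the shared estimate of spread, gave 3.

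Hist1h2ap FPKM in p53 KO was 156 and 119 with vehicle and 36.8 and 60.6 with doxorubicin, in lines 1 and 2. Both lines were lower with the drug and the groups did not overlap. The H4 sum was 10.7 and 7.12 CPM with vehicle and 6.38 and 4.50 CPM with drug, also lower within each line, and no H4 gene was called. The H2A sum was 3.17-fold lower between group means, going from 228 ± 45.4 to 72.0 ± 20.3 CPM (SD, n = 2), while the Hist2 sum stood at 4.63 ± 0.53 and 4.77 ± 1.45 CPM.

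In Dux KO cells the decline with doxorubicin ran through every class of the Hist1 cluster, and the class medians of this cluster were negative in p53 KO too. Of the 58 genes, 24 fell and 0 rose, where 11.9% of all genes tested fell and 14.5% rose. All 24 were Hist1 genes: 12 H2A, 5 H2B, 3 H4, 2 H3 and 2 H1. Every one of the 48 Hist1 genes had a fitted level below vehicle, and the median over the 58 genes was -2.21 (-2.18 with Hist1h2bj at its bound), against 0.00 over all genes. This comparison rests on 1 vehicle library, and leaving out doxorubicin 2 gave 7 falls.

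The core of the fall was the same set of H2A genes as in wild type: 12 genes fell in both, which is 92.3% of the 13 falls in wild type and 12 of the 24 in Dux KO. Those comparisons share no library, but both use a spread estimated over all libraries. H2A genes also share much of their sequence, so the 12 are not separate results. How many of all genes fell in both genotypes was not counted, so the overlap cannot be called particular to histone genes. Hist1h2ap FPKM in Dux KO was 161 and 218 with vehicle and 48.0 and 30.9 with doxorubicin. Outside H2A, Hist1h4d fell by 2.73, Hist1h3g by 2.60 and Hist1h2bg by 2.53, and Hist1h4n by 2.88. Hist1h1b, a linker histone gene, had 31 counts in the vehicle library and 2 in both drug libraries together, 32.5-fold lower with a counting interval of 8.26 to 280, and Hist1h2bj had 13 and 0, at least 4.54-fold lower at a floor of 3 counts per library. Counts of this data set are mostly even, so counting intervals are narrower than the true error.

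Hist1h3i, Hist1h4a, Hist1h4d and Hist1h4n rose in wild type and fell in Dux KO. How many of all genes did so was not counted. For Hist1h4d, CPM in wild type was 0.699 and 0.449 with vehicle and 1.42 and 2.26 with doxorubicin. In Dux KO it was 1.01 with vehicle and 0.189 and 0.109 with doxorubicin, so the drug libraries lay on opposite sides of vehicle in these genotypes. The Hist2 sum in Dux KO was 10.02 CPM with vehicle and 10.13 and 6.90 CPM with doxorubicin, where the Hist1 sum was 455, then 109 and 74.5 CPM.

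**Figure D3:**
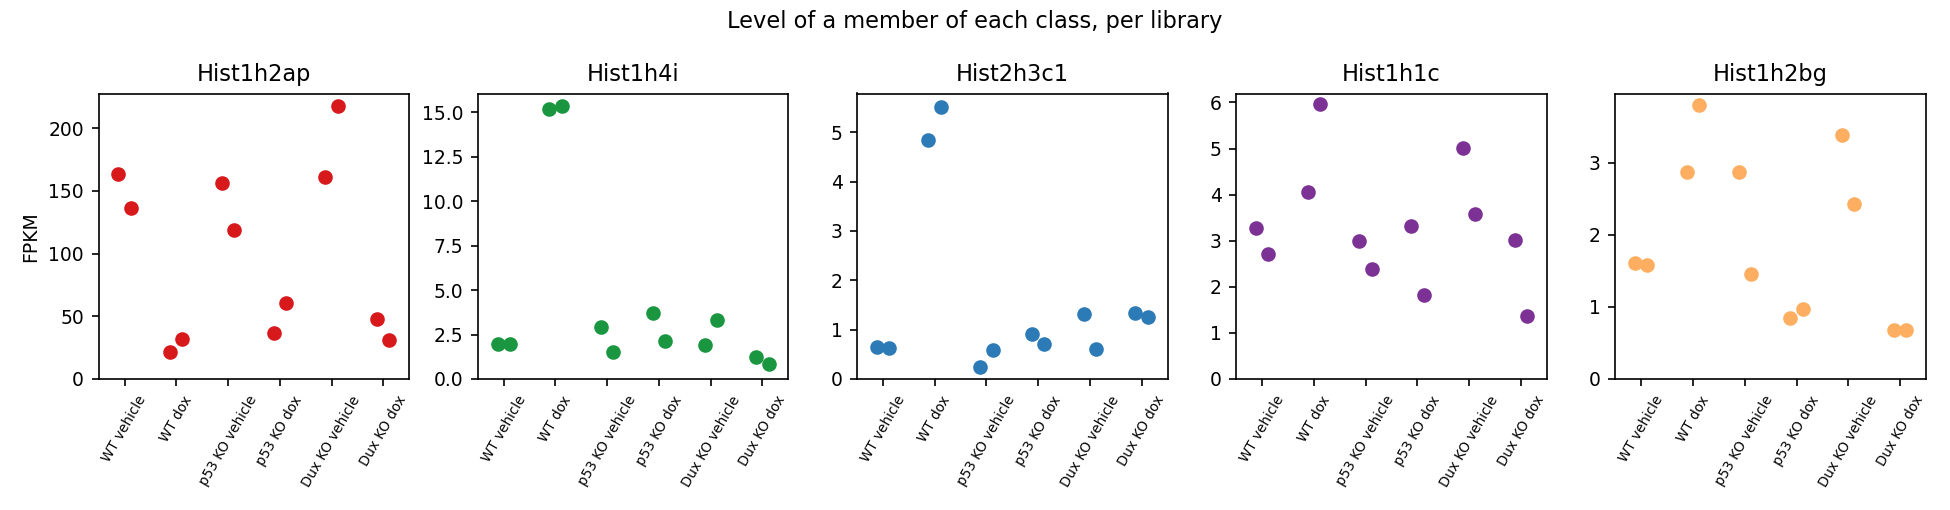
FPKM per library of an H2A gene (Hist1h2ap), an H4 gene (Hist1h4i), an H3 gene (Hist2h3c1), an H1 gene (Hist1h1c) and an H2B gene (Hist1h2bg) in the 6 groups. Points are libraries, 2 per group, and each axis starts at 0. Hist1h2ap was lower with doxorubicin in all 3 genotypes, while Hist1h4i and Hist2h3c1 stood far above all other libraries in wild-type doxorubicin.

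The difference between genotypes was tested directly, as the knockout's drug response minus that of wild type. In p53 KO, 16 of the 58 genes had a lower response than in wild type and 0 a higher one, where 10.3% and 9.90% of all genes did. In Dux KO the numbers were 11 and 0, where 3.15% and 2.10% of all genes did. Medians over the 58 genes were -1.86 for p53 KO and -2.70 for Dux KO, against 0.05 and 0.06 over all genes. The p53 KO median was -1.17 without p53 KO vehicle 1 and -1.30 without wild-type doxorubicin b. Both tests use the same wild-type libraries and are not independent of each other. When a library was left out as below, the share of all genes called moved the same way as these numbers. The left-out numbers are therefore not a result about the 58 genes alone. With the line as a block the Dux KO number was 23, where 8.44% of all genes had a lower response. Single libraries weighed heavily here: without wild-type doxorubicin b the numbers were 3 and 0, without doxorubicin a 10 and 7, and without vehicle a 8 and 2. Without vehicle b they were 4 and 0, without p53 KO vehicle 1 the p53 KO number was 10, and without p53 KO doxorubicin 1 or 2 the Dux KO number was 17. Without Dux KO doxorubicin 1 or 2 it was 2 or 1.

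The genes whose response differed were led by H4. Hist1h4k differed by -5.15 in p53 KO and -5.77 in Dux KO, with CPM of 0.272 and 0.075 rising to 1.22 and 2.66 in wild type, 0.877 and 0.499 against 0.173 and 0.2498 in p53 KO, and 0.563 against 0.075 and 0.146 in Dux KO. Wild type stood alone in being higher with drug. The vehicle level enters the p53 KO difference as well. Against wild-type vehicle, the fitted p53 KO vehicle level was 1.97 higher for Hist1h4k, 3.15 for Hist1h4n and 0.22 for Hist1h4i (log2), none of them called. Hist1h4n differed by -4.87 and -6.39, Hist1h4j by -4.34 and -4.49, and Hist1h4i by -2.79 and -3.99. Among H3 genes, Hist1h3i differed by -3.50 and -3.90 and Hist2h3c1 by -2.29 and -3.23. Hist1h2bg, an H2B gene, differed by -2.59 and -3.55. By class, the median difference for H4 was -3.23 in p53 KO and -4.40 in Dux KO, while for H2A it was 0.40 and -0.55. Hist2h2aa1 and the pseudogene Hist1h2al were the H2A genes called (Hist2h2aa1 in p53 KO alone). Much of the sequence of Hist1h2al recurs in transcripts that lie across the Hist2 H2A genes. Whether its difference is separate from theirs was not tested.

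Before the drug, the main test called none of the 58 genes between genotypes, but the H2A level was higher in Dux KO. The H2A sum was 274 and 241 CPM in wild-type vehicle and 421 CPM in the 1 Dux KO vehicle library. In FPKM it was 590 and 522 in wild type and 872 and 1016 in Dux KO. Of the 17 H2A genes, 16 had a higher fitted level in Dux KO vehicle, with a median log2 difference of 1.01. H2A genes share much of their sequence, so the 16 are not separate results. In the most abundant H2A genes, Hist1h2ap and Hist1h2ao, the fitted log2 difference was only 0.17 and 0.19. Comparing each knockout's vehicle libraries with wild-type vehicle, 0 of the 58 genes passed in either direction in p53 KO, where 0.140% of all genes were higher and 0.747% lower, and 0 passed in Dux KO, where 0.656% were higher and 0.346% lower. At an unadjusted p under 0.05 there were 7 in p53 KO and 10 in Dux KO (edgeR), where 13.1% and 18.2% of all genes had such a p. DESeq2 called 2 and 1 higher, where it called 1.78% and 3.32% of all genes it tested. With the line as a block 3 were higher in p53 KO (Hist1h1a, Hist1h4d and Hist1h4n) and 7 in Dux KO, where 10.96% and 9.90% of all genes were. Hist1h1a, a linker histone gene, had 1.09 and 1.27 CPM in wild-type vehicle and 6.43 and 3.00 CPM in p53 KO vehicle. The H4 sum was 4.74 and 3.63 CPM in wild-type vehicle and 10.7 and 7.12 CPM in p53 KO vehicle. Of the 11 H4 genes, 10 had a higher fitted level in p53 KO vehicle and 1 a lower one, with a median log2 difference of 1.29. At an unadjusted p under 0.05 there were 5 of these 11 (edgeR), where 13.1% of all genes had such a p.

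H2A and H2B genes often stand head to head and share 1 promoter region, so they give a comparison within a locus. In 8 such pairs both genes were among the 58, with 176 to 302 bases between their starts. In wild type the H2A gene fell in 8 of 8 pairs, and the H2B gene fell in none and rose in none. For Hist1h2ae and Hist1h2bg, 176 bases apart, the log2 fold changes were -1.93 and 1.03 (the latter with an edgeR adjusted p of 0.0689). In Dux KO the H2A gene fell in 8 and its H2B partner in 5, and the same 2 genes changed by -2.49 and -2.53. Differences between partners were not themselves tested, and the nested miRNA genes lie on the H2A side.

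**Figure D4:**
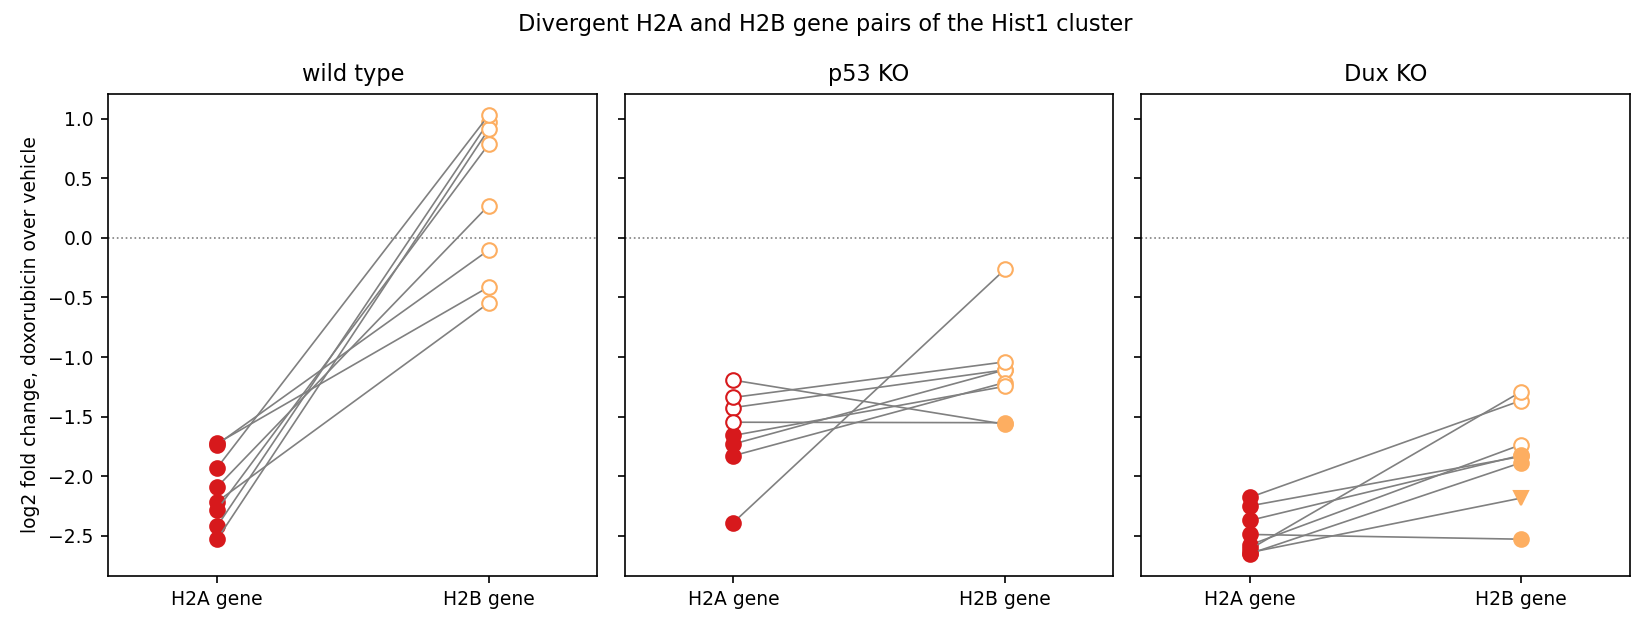
Log2 fold change, doxorubicin over vehicle, of the H2A and the H2B gene in 8 head-to-head pairs of the Hist1 cluster, joined by a line, in wild type, p53 KO and Dux KO. Filled points passed an adjusted p under 0.05 (edgeR), and the downward triangle is Hist1h2bj at its bound. In wild type all 8 H2A genes fell and no H2B gene was called, and in Dux KO 5 H2B genes fell with their partners.

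Neither 3′ feature divided the responses cleanly. In wild type, 15 of the 39 genes with a stem-loop in the annotated transcript rose and 7 fell, and of the 19 without one 4 rose and 6 fell. Among the 17 genes with AATAAA after the stop codon 6 rose and 2 fell, with a median log2 fold change of 0.91, and among the 41 without it 13 rose and 11 fell, with a median of 0.82. In Dux KO 6 of the 17 and 18 of the 41 fell. No tail was measured, and early-ending transcript models place genes in the groups without a feature.

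Replacement histones, which are encoded outside the clusters, mostly by ordinary polyadenylated messages and mostly made through the whole cycle, give a rough point of reference. In wild type 8 of the 11 tested fell and none rose, among them H2afz by 1.66 (H2A.Z), H1f0 by 1.08 (H1.0), H3f3a by 0.97 (H3.3) and H2afy2 by 0.67 (macroH2A2). In p53 KO 2 fell, H2afz by 1.07 and H1f0 by 0.59, and none rose. In Dux KO H2afz fell by 1.29 and H3f3a by 0.98, and H2afj rose by 1.63.

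Factors that finish and degrade histone messages were mostly lower in wild type. Of 15 tested, 10 fell and 1 rose in wild type: Slbp, the stem-loop binding protein, by 0.84, Lsm10 of the U7 particle by 0.87, the cleavage factors Cpsf3 and Cstf2 by 1.02 and 1.20, while the scaffold Sympk rose by 0.56. In p53 KO 1 fell and 2 rose, and in Dux KO 7 fell and 1 rose, with Cstf2 at -1.08 and Cpsf3 at -0.82. The response of Cpsf3 and Cstf2 was higher in p53 KO than in wild type, by 0.99 and 0.80. Of 9 genes of histone transcription and S-phase entry, 3 fell in wild type (the kinase Cdk2 by 1.59, its cyclin Ccne1 by 1.05 and the phosphatase Cdc25a by 0.67) and the cyclin Ccna2 rose by 0.42. In p53 KO none of the 9 passed, and in Dux KO Ccne1 fell by 1.397 and Cdk2 by 0.60. Of 11 histone chaperones 5 fell in wild type, led by Nasp at -1.17, Chaf1b at -1.11 and Atrx at -1.07, and Chaf1a rose. In p53 KO 4 fell and in Dux KO 3 fell, and none rose.

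The authors' deposited table holds its own wild-type comparison. At an adjusted p under 0.05, 21 of the 58 genes were higher and 12 lower with doxorubicin in the authors' deposited table, and 19 and 12 of these were called in the same direction above. Hist1h2af had an adjusted p of 0.117 in the authors' deposited table, which also called Hist1h1c (0.0353) and Hist1h3c (0.0112) higher.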

How the data were processed

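Gene counts, as the authors deposited them, were whole numbers per gene and library, and FPKM values were those deposited by the authors. TopHat2, DESeq and DESeq2 with build mm10 are named in the submitters' processing notes. The authors' deposited table also gave log2 fold changes and adjusted p-values. Read counter, annotation and strand setting are not given in the sources used here. Count over FPKM matched the whole gene span within 1% in over 98% of genes, so introns are counted too. Counts of nested genes beside those of the genes around them were compared, by strand. Among counts of at least 500, 26.4 to 33.4% were odd. Another 6 columns, of group averages, were not used.

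Counts were tested with edgeR 4.0.16 (quasi-likelihood, TMM scaling, filterByExpr with a minimum count of 10, 1 mean per group over 11 libraries, 5 residual degrees of freedom, Benjamini-Hochberg adjustment over 28643 genes, threshold 0.05), CPM being TMM-scaled. p-values measure the spread between these libraries, which the labels call biological duplicates. Interactions subtract the wild-type drug response from the knockout's. The knockout line numbers pair vehicle and drug libraries by their labels (correlation of deviations 0.669 in p53 KO, 0.212 in Dux KO, the latter with recovered counts). DESeq2 1.42.0 and limma 3.58.1 on log2(FPKM + 1) or log2(FPKM + 0.1) were alternatives, as were counts of the second Dux KO vehicle library recovered from its FPKM column (99.73% of low values came out whole). The script was tested on simulated data. Gene names and positions are from GENCODE M21. Genes, lists and the choice of the question were made with earlier results of these data known. Named were, per comparison, up to 10 of the largest calls each way, the 3 highest genes per class by FPKM, all Hist2 and Hist3 genes, genes beside the count threshold, and up to 4 called genes per list. Others (Hist1h4d, Hist1h1a, Hist1h2be, Hist1h2ae and those named in overlaps, pairs and left-out libraries) were named after their values were seen.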

Additional observations from a re-analysis of the deposited data

Results flagged for a closer look

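The drug response of 16 histone cluster genes in p53 KO and of 11 in Dux KO differed from that in wild type by the test of the difference itself (edgeR, adjusted p under 0.05). All differences, on the log2 scale and as knockout minus wild type, were negative. In p53 KO the H4 genes were Hist1h4k at -5.15, Hist1h4f at -5.04, Hist1h4n at -4.87, Hist1h4j at -4.34, Hist1h4a at -3.23, Hist1h4i at -2.79 and Hist1h4d at -2.76. The H3 genes were Hist2h3b at -5.80, Hist1h3i at -3.50, Hist2h3c2 at -3.41, Hist1h3c at -3.38 and Hist2h3c1 at -2.29. The remaining 4 were the H2A genes Hist1h2al at -3.97 and Hist2h2aa1 at -3.43, and the H2B genes Hist1h2bg at -2.59 and Hist1h2br at -2.12. Hist2h3b rests on 2 counts with drug and 14 with vehicle in p53 KO. Hist2h3b, Hist1h4f and Hist1h4j passed the count rule only through wild-type doxorubicin, so their differences, here and in Dux KO, are not independent of it. Hist1h2al shares much of its sequence with transcripts that lie across the Hist2 H2A genes.

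In Dux KO the H4 genes were Hist1h4n at -6.39, Hist1h4k at -5.77, Hist1h4j at -4.49, Hist1h4a at -4.46, Hist1h4d at -4.41 and Hist1h4i at -3.99. The others were Hist1h2al at -4.0, Hist1h3i at -3.90, Hist1h2bg at -3.55, Hist2h3c1 at -3.23 and Hist1h3g at -2.95. Each of these rests on 1 Dux KO vehicle library, and without wild-type vehicle b or wild-type doxorubicin b none of the 11 passed.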

How the results depend on the processing

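No called gene reversed direction under any alternative: 1457 gene values kept their side of the threshold and 277 lost it. Calls held in every alternative run for 11 of 32 genes in wild type (Hist1h2aj, Hist1h2al, Hist1h2ao, Hist1h2ap, Hist1h4f, Hist1h4i, Hist1h4j, Hist1h4k, Hist2h2aa2, Hist2h3c1 and Hist2h3c2), 0 of 6 in p53 KO, 4 of 24 in Dux KO (Hist1h2ah, Hist1h2ao, Hist1h2ap and Hist1h2bg), 2 of 16 differences in p53 KO (Hist1h4j and Hist1h4k) and 0 of 11 in Dux KO. Among the genes kept in every run, Hist1h4f and Hist1h4j passed the count rule only through wild-type doxorubicin. Hist1h2al shares much of its sequence with transcripts that lie across the Hist2 H2A genes. The median log2 fold change of all genes in wild type was 0.13, and 0.23 with RLE scaling. It was 0.30 over the 30574 genes DESeq2 tested, and -0.16 and -0.24 over 14614 genes on FPKM with a pseudocount of 1 and 0.1, where method and gene set changed too.

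With only the compared groups in the fit, 30 genes rose in wild type, 0 fell in p53 KO, 1 rose in Dux KO, 33 differed in Dux KO, and 20 were higher and 1 lower in Dux KO vehicle. Of all genes in those fits 39.8% rose in wild type, 0 passed in p53 KO, 11.9% had a lower response in Dux KO, and 20.4% were higher in Dux KO vehicle. DESeq2 gave 16 falls in p53 KO, 21 differences in Dux KO, and 2 and 1 genes higher in p53 KO and Dux KO vehicle. With the replicate block these were 18, 23, 3 and 7. The block with recovered counts, added after seeing the data, gave 15, 30, 2 and 4, with 1 rise in Dux KO. The block changed no other count by over 1.5 times. FPKM with a pseudocount of 1 gave 1 rise and 19 differences in Dux KO, and with 0.1 it gave 17 differences. The H3 log2 ratio in Dux KO was -1.68 over genes that overlap no other, against -1.28.

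Leaving out each library in turn gave 9 to 20 rises and 5 to 13 falls in wild type, 3 to 8 falls in p53 KO, 0 to 1 rises and 7 to 26 falls in Dux KO, 3 to 16 differences in p53 KO, 0 to 17 in Dux KO, and 0 at baseline. No Dux KO value could be had without its 1 vehicle library, and no H2A value over non-overlapping genes, since all overlap. The shares of all genes called moved from run to run too. The cause of these moves was not tested. Depth limits single genes: the median gene had 423.5 counts over 11 libraries.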
